A study of Mus musculus with 18 samples.

Results

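The genes of the last part of the respiratory chain were followed here in leukemia stem cells: those of complex III with its carrier cytochrome c, of complex IV, and of the ATP synthase. Members were the rows of the count table whose Ensembl ID maps to a mouse protein-coding gene with a symbol that begins with Uqcr, Cox4 to Cox8 or Atp5, or is Cyc1 or Cycs. Pseudogenes were left out. This gave 46 rows, with 45 symbols, of 54347 rows in the table: 10 for complex III, 18 for complex IV and 18 for the ATP synthase. The symbol Atp5o stands on 2 rows, of which 1 (ENSMUSG00000116933) was at 0 in every library.

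Leukemia stem cells were flow-sorted 30 days after the leukemia had been induced, 7000 from the bone marrow of each C57BL/6JRj mouse. The mutant group held 5 mice labelled Prx1-Cxcl12-mutant (mice 6, 7, 8, 10 and 12), and the control group 4 mice labelled Prx1-Cxcl12-wild type (mice 1, 2, 3 and 4). Cxcl12 encodes a chemokine of the marrow niche, and the Prx1 promoter acts in mesenchymal stromal cells, so the labelled genotype concerns the stroma of the host. The labels do not say where the leukemia cells came from. The induced leukemia is shared by both groups. The sources used here name neither its driver nor the sorting markers, and give no age or sex of the mice. The comparison addressed the energy balance of leukemia stem cells in the mutant niche, which the title of the series names. Each mouse gave 2 technical libraries of 3′-end RNA-seq by MARS-seq, a low-input method that reads the ends of polyadenylated RNA, and the counts of both were summed.

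Complex III passes electrons from ubiquinol to cytochrome c and pumps protons, complex IV passes them from cytochrome c to oxygen, and the ATP synthase uses the proton gradient to make ATP. Each complex joins one or more subunits encoded in mitochondrial DNA to many encoded in the nucleus, and the members here are nuclear. Several complex IV subunits have a form of most tissues and a form of heart and muscle, lung or testis. Leukemia stem cells are known to rely on oxidative phosphorylation.

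No member passed the test in any of the 3 complexes. A member was called at an edgeR adjusted p under 0.05 over all 12973 genes tested, and the calls over the whole table were 9 genes, or 0.0694%. DESeq2 called none of the members either. In all 41 members passed the low-count filter and were tested, while Cox4i2, Cox7b2, Cox8b, Cox8c and the second Atp5o row did not. Most tested members lay slightly above 0 in the mutant cells. Complex III had 9 of 10 tested members above 0 with a median log2 fold change (mutant over control) of 0.08. Complex IV had 9 of 14 with a median of 0.07, and the ATP synthase had 13 of 17 with a median of 0.07. Over all tested genes 51.7% lay above 0, with a median of 0.01. These small shifts depended on which library of a mouse was read, as given below.

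**Figure D1:**
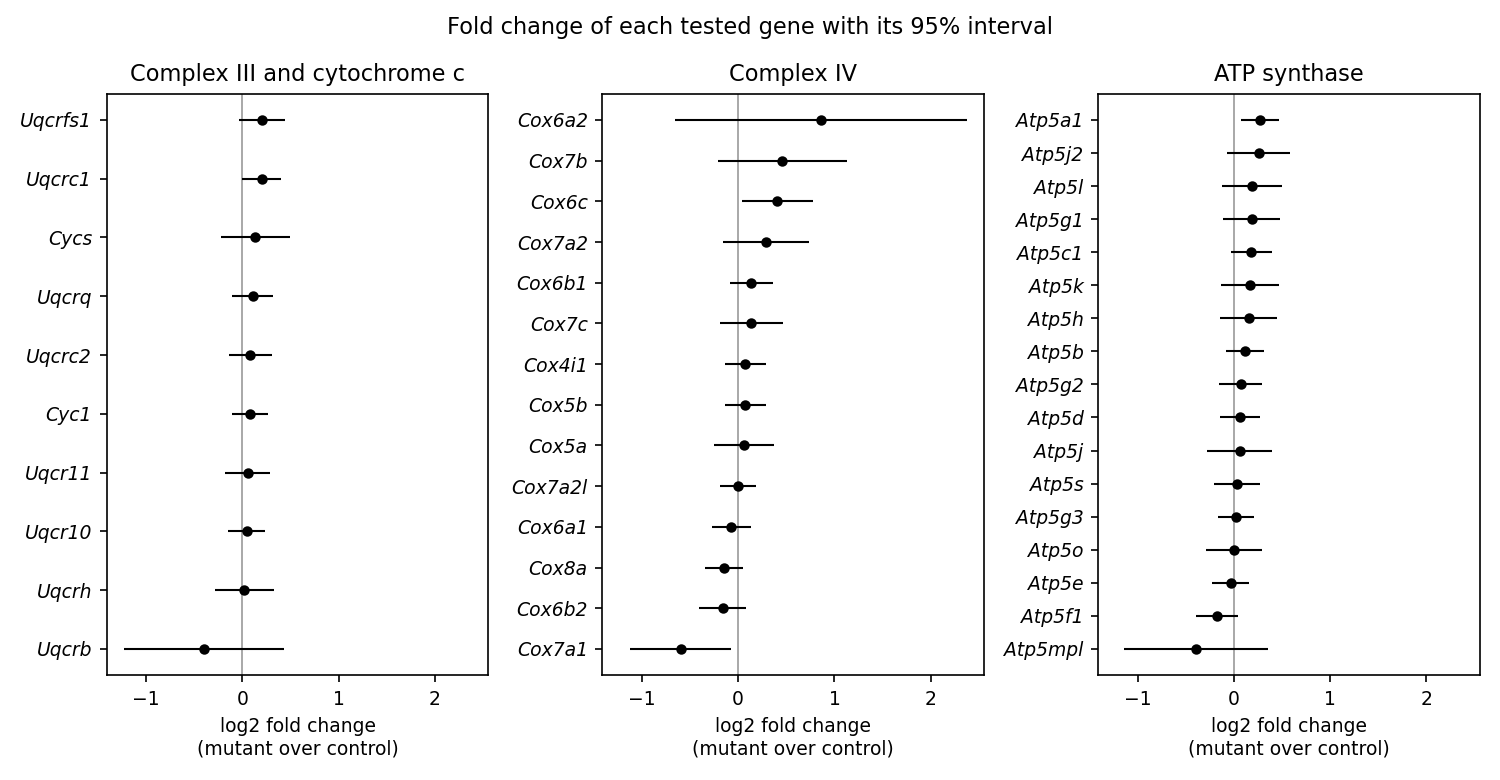
Log2 fold change of mutant over control for each of the 41 tested genes, with its 95% interval (edgeR, 5 mutant and 4 control mice), ordered within each complex. Medians are 0.08 for complex III, 0.07 for complex IV and 0.07 for the ATP synthase, and the intervals of Atp5a1, Cox6c and Cox7a1 leave out 0 before adjustment.

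Of the members, 2 were higher and 1 was lower at an unadjusted p under 0.05, against 4.96% and 4.89% of all tested genes in these directions. The higher ones were Atp5a1 and Cox6c, and the lower one was Cox7a1. In only 1 member did the groups not overlap, Atp5a1, with every mutant mouse above every control. Over all tested genes this held for 1.87% with mutants higher and for 2.13% with mutants lower. The members' counts were thus near the share of the whole table.

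Libraries held between 3825500 and 15071673 counts, and mice between 11766467 and 25485899. Mutant mice were deeper, at 20734088 ± 4170598 counts (SD, n = 5) against 15160572 ± 2307737 in controls (SD, n = 4). Stem and progenitor markers were present: Hoxa9 stood at 173 to 355 CPM (the count scaled to the effective library size and not to gene length, so levels are compared within a gene) and Meis1 at 27.5 to 48.5 CPM. In the same list Flt3 was at 0.24 to 9.69 CPM, and Mecom, at 0 to 1.38 CPM, was not tested. Kit, the stem cell factor receptor, was at 23.5 to 27.4 CPM in controls and 16.1 to 21.8 CPM in mutants, with every mutant below every control (log2 fold change -0.43, SE 0.11, edgeR adjusted p = 0.254). Of the 9 tested stem and progenitor markers 3 were above 0, with a median of -0.15. The 8 T and NK cell markers summed to 0.11 to 0.80 CPM, with Cd3e at 0 in 8 of 9 mice. The 9 erythroid markers summed to 5.93 to 50.9 CPM in controls and 12.8 to 56.4 CPM in mutants. Of these, 5 were tested and all 5 were above 0, with a median of 0.72 and no call. Hbb-bt was the highest, at 1.87 (SE 0.68, edgeR adjusted p = 0.398). The 9 stromal and endothelial markers summed to 6.70 to 9.16 and 4.02 to 10.2 CPM. Of the 2 tested, Pdgfrb was at -0.56 (SE 0.25) and Lepr at 0.53 (SE 0.38). Mature neutrophil markers (9 genes) summed to 450 to 969 CPM in controls and 226 to 467 CPM in mutants. Camp made up much of that sum, at means of 386 and 139 CPM, and 5 of the 9 were above 0, with a median of 0.11. The 7 megakaryocyte and platelet markers summed to 30.7 to 41.5 and 21.9 to 33.6 CPM, with Gp1ba at 0 in all mice. Among them Itga2b was the only marker called (means 2.48 and 0.67 CPM, -1.90, SE 0.30, edgeR adjusted p = 0.0427). Also tested were Gp1bb, at -0.395 (SE 0.16), and Gp9, at 0.17 (SE 0.21). The 8 macrophage markers summed to 58.4 to 74.7 and 43.2 to 81.4 CPM. Of the 2 tested, Adgre1 was lower in every mutant than in any control (-0.53, SE 0.12, edgeR adjusted p = 0.176). Vcam1 was at 0.26 (SE 0.26). The 5 mast cell and basophil markers summed to 8.69 to 20.6 and 9.15 to 17.9 CPM. Of the 2 tested, Cpa3 was at -1.54 (SE 0.42) and Mcpt8 at 0.43 (SE 0.22). The 7 B and plasma cell markers summed to 157 to 220 and 119 to 210 CPM. The part of these cells in the members' values was not tested. In such bulk samples a smaller share of cells of one type and less RNA per cell cannot be told apart.

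3 genes, Atp5g1, Atp5g2 and Atp5g3, encode subunit c, which forms the rotor ring of the ATP synthase. They are shown because their messages differ while the mature protein they encode does not. The last 78 codons of their coding sequences specify the same residues, and 63 of those 234 bases differ among the 3 genes. Capitals mark the bases that differ, in the GENCODE transcripts on GRCm38, read 5′ to 3′.
Atp5g1: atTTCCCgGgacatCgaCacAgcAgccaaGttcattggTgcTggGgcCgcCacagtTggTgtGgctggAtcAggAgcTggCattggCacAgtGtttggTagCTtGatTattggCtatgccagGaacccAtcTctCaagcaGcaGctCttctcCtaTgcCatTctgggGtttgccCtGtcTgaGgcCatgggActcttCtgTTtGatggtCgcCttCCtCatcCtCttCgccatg
Atp5g2: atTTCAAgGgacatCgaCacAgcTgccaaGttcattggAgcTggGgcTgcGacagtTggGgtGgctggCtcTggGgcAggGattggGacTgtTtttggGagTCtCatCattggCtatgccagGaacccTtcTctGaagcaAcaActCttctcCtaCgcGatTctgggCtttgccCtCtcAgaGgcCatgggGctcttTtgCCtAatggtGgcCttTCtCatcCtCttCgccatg
Atp5g3: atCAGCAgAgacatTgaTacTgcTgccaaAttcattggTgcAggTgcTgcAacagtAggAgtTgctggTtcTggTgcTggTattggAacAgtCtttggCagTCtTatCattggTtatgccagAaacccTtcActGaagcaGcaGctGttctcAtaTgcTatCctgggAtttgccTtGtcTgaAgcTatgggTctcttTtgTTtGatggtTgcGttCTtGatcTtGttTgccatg
Atp5g1 and Atp5g2 differ at 36 of these bases, Atp5g1 and Atp5g3 at 50, and Atp5g2 and Atp5g3 at 53.

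The promoters of respiratory genes are known for sites of the regulator NRF1, and 1 promoter of each complex that holds its core letters is shown. The core searched was GCGCANGCG on both strands, in windows of 300 bases from 250 before to 50 after the start of RefSeq genes (GRCm38.p6). Of 45 symbols 34 matched, with 37 promoters. The core stood in 11 of these 37 promoters: 3 of 6 for complex III, 1 of 13 for complex IV (Cox6a1) and 7 of 18 for the ATP synthase, against 6.25% of all 32851 promoters. The core of ETS factors (CCGGAAG) stood in 10 of 37 against 8.86%, and that of YY1 (AAGATGG) in 4 of 37 against 6.34%. Member promoters had a median GC content of 56.0% against 52.7% for all promoters. A match is a description of letters and no measure of binding. Capitals mark the NRF1 core, and the lines give chr9:108936398-108936697 (plus strand), chr5:115348909-115349208 (minus strand) and chr2:10080383-10080682 (minus strand).
Uqcrc1: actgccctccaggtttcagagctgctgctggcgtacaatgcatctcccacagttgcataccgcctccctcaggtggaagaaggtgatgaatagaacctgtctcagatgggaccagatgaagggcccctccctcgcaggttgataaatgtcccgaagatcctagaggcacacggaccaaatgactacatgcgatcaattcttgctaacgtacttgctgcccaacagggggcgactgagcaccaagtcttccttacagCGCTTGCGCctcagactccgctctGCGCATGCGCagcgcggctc
Cox6a1: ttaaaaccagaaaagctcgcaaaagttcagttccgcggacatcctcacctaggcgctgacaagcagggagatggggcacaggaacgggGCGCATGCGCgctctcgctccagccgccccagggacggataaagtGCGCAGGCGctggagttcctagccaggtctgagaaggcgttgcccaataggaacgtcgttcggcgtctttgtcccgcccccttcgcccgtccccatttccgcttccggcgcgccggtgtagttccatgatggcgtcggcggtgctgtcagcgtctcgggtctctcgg
Atp5c1: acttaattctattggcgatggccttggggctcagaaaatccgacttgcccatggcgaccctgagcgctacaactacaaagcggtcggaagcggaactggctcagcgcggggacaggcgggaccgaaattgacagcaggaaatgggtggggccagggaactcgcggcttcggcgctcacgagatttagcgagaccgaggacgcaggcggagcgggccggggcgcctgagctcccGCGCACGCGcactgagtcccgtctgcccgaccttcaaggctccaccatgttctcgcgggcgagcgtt
A palindromic run of capitals holds the core on both strands. The matches begin at 7, 31 and 32 after the start of Uqcrc1, at 162, 161 and 117 before that of Cox6a1, and at 17 before the start used here for Atp5c1. The other listed promoter of Atp5c1 held no NRF1 core. The log2 fold changes of these genes were 0.20, -0.07 and 0.18, so 1 of the 3 had a value below 0.

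In complex III, the core protein gene Uqcrc1 (ENSMUSG00000025651, GRCm38 chromosome 9, 108936633 to 108949623) had the smallest p. Controls 1 to 4 had 109, 113, 132 and 103 CPM, and mutants 6, 7, 8, 10 and 12 had 139, 120, 138, 135 and 125 CPM. Control 3 alone reached into the mutant range. The means were 114 ± 12.6 and 131 ± 8.53 CPM (SD, n = 4 and 5), with a log2 fold change of 0.20 (SE 0.10, edgeR adjusted p = 0.521). Uqcrc2, the other core protein, had 82.5 to 95.9 CPM in controls and 80.8 to 111 CPM in mutants, and a log2 fold change of 0.08 (SE 0.10).

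Uqcrfs1 (ENSMUSG00000038462, chromosome 13, 30540308 to 30545362) encodes the Rieske iron-sulfur protein, which takes the first electron from ubiquinol. Controls held a narrow range of 223, 230, 242 and 242 CPM, and the mutants spread from 214 in mouse 8 to 310 in mouse 7, with 272, 251 and 297 in mice 6, 10 and 12. Mutant 8 lay below every control, and the other 4 mutants above. The log2 fold change was 0.20 (SE 0.11, edgeR adjusted p = 0.574). The heme carriers had similar levels in both groups: Cyc1, cytochrome c1, stood at 369 ± 22.5 and 389 ± 27.1 CPM (SD, n = 4 controls and 5 mutants), and Cycs, cytochrome c, at 132 ± 19.7 and 144 ± 34.1 CPM. Their 95% intervals, -0.11 to 0.27 and -0.22 to 0.49 on the log2 scale, hold 0.

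The small subunits of complex III lay close to 0. Uqcrq, which sits beside cytochrome b, had 0.10 (SE 0.10), Uqcr11 had 0.05 (SE 0.11), Uqcr10 had 0.04 (SE 0.09) and the hinge protein gene Uqcrh had 0.02 (SE 0.14). Only Uqcrb, which binds ubiquinone at the complex, lay below 0, at -0.40 (SE 0.38), and it was at a low level. Its values were 7.74, 6.95, 4.56 and 4.50 CPM in controls and 3.25, 2.65, 2.51, 4.29 and 10.02 CPM in mutants. Mutant 12 had the highest value of all 9 mice, and the other 4 mutants were below every control. Without mutant 12 the log2 fold change was -0.91 (edgeR adjusted p = 0.208). That high value came from 1 library, with 19.6 CPM in the first and 3.75 CPM in the second library of mutant 12. Without that second library, which keeps the high one, the log2 fold change was -0.02. With the first libraries of all mice alone it was -0.116, and with the second alone -0.645.

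In complex IV, Cox6c (ENSMUSG00000014313, chromosome 15, 35925886 to 35938246, overlapping Vps13b on the opposite strand), a small subunit, had the highest fold change among members with an unadjusted p under 0.05. Controls had 176, 203, 258 and 194 CPM, and mutants had 357, 331, 243, 244 and 204 CPM. Mutants 6 and 7 were above every other mouse, mutants 8 and 10 were below control 3, and mutant 12 was within the control range. The means were 208 ± 35.1 and 276 ± 64.9 CPM (SD, n = 4 and 5), with a log2 fold change of 0.41 (SE 0.17, edgeR adjusted p = 0.446). Leaving out the first library of mutant 7, which held 419 CPM against 202 in the second, gave 0.27 (adjusted p = 0.655).

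For Cox7b and Cox7a2, further small subunits, mutants lay on both sides of the controls. Cox7b (chromosome X, 106015700 to 106022450) had 67.1, 118, 158 and 79.8 CPM in controls and 181, 169, 174, 143 and 59.4 CPM in mutants, so that 3 mutants were above every control and mutant 12 below every control. Its log2 fold change was 0.46 (SE 0.31). Cox7a2 had 196, 228, 317 and 221 CPM in controls and 354, 340, 322, 292 and 164 CPM in mutants, with 0.29 (SE 0.21). In both genes control 3 was the highest control and mutant 12 the lowest mouse of all.

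Cox7a1, the heart and muscle form of that subunit (ENSMUSG00000074218, chromosome 7, 30184144 to 30186078), was lower in mutants at an unadjusted p of 0.0279 and at a low level. Controls had 5.37, 4.34, 4.90 and 2.84 CPM and mutants had 3.36, 1.97, 2.55, 2.77 and 3.8 CPM. Control 4 fell among the mutants, and mutants 7, 8 and 10 were below every control. The log2 fold change was -0.60 (SE 0.24, edgeR adjusted p = 0.431), and -0.13 with the log2 total count of the mouse as a covariate (adjusted p = 0.987). The third member of the family, Cox7a2l, encodes a factor that joins complexes III and IV into supercomplexes. It held 396 to 443 CPM in controls and 376 to 460 CPM in mutants, with a log2 fold change of -0.001 (95% interval -0.19 to 0.19).

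**Figure D2:**
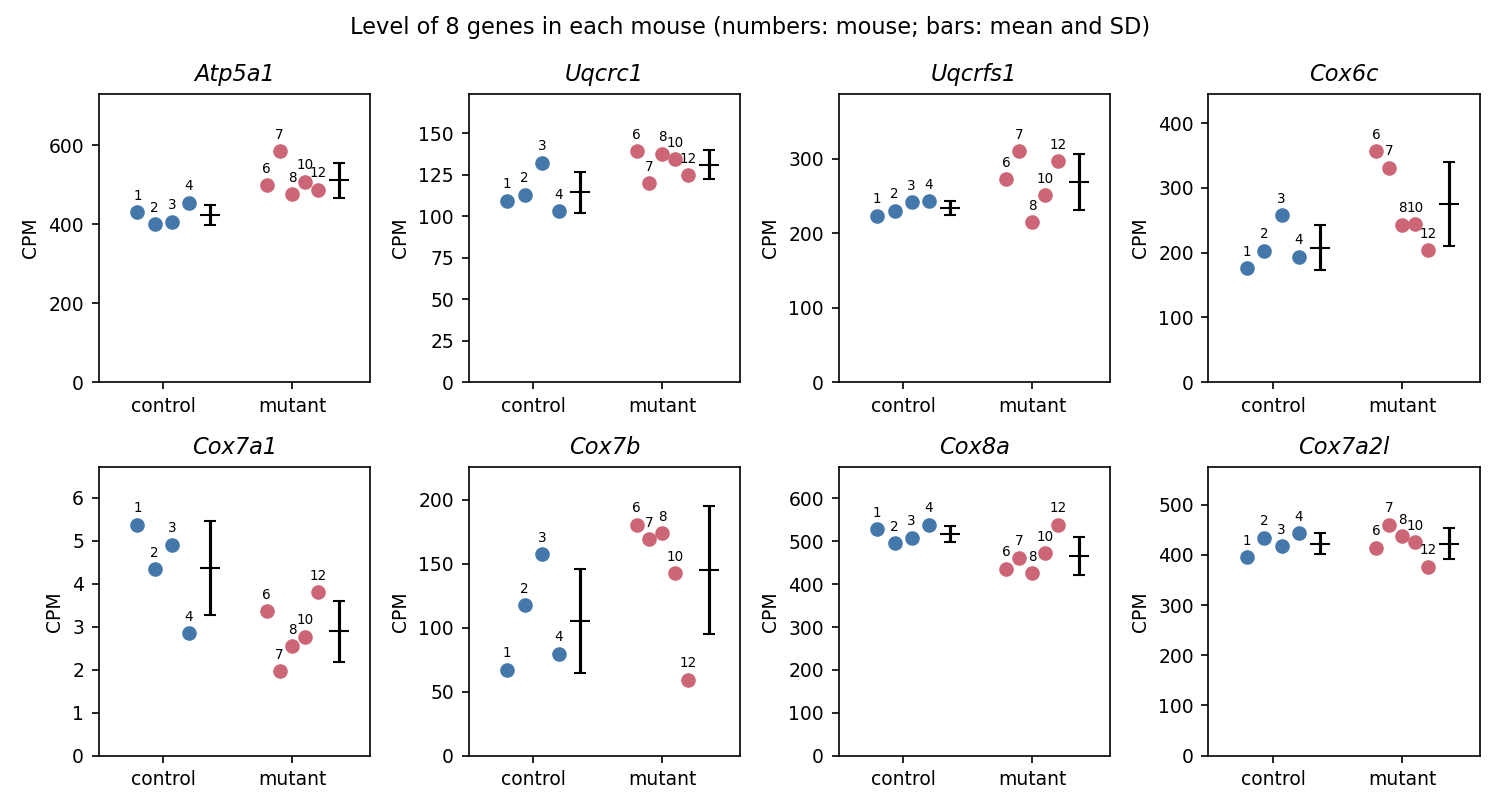
Level of 8 genes in CPM in each mouse, with the mouse number above each point and the mean and SD beside each group (4 control and 5 mutant mice). Atp5a1 is the only one of these genes whose groups do not overlap; mutant 12 is the lowest mutant in Cox6c, Cox7b and Cox7a2l and the highest in Cox7a1 and Cox8a.

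The core nuclear subunit of complex IV, Cox4i1 (chromosome 8, 120668222 to 120674207, overlapping Gm20388 on its own strand and Emc8 on the opposite one), had 1314, 1443, 1571 and 1287 CPM in controls and 1476, 1370, 1667, 1522 and 1350 CPM in mutants. The groups overlapped throughout, with a log2 fold change of 0.07 (95% interval -0.14 to 0.29). Its lung-type form Cox4i2 was at 0 counts in all controls and 2 counts over all mutants and was not tested. Cox5a and Cox5b, the other subunits around the catalytic core, had 0.06 (SE 0.15) and 0.07 (SE 0.10), and control 3 had the highest Cox5a value of all mice, at 1053 CPM against 680 to 706 CPM in the other controls.

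Other paired forms were read as follows. Cox6a1, the common form, stood at 870 ± 17.6 and 828 ± 83.2 CPM (SD, n = 4 controls and 5 mutants), while the muscle form Cox6a2 was at 0.48 and 0.89 CPM. Cox6b1, the common form, had 353, 358, 428 and 365 CPM in controls and 447, 452, 424, 388 and 357 CPM in mutants, with a log2 fold change of 0.14 (SE 0.10). Cox6b2, known as the testis form, was also present, at 96.1, 88.3, 118 and 101 CPM in controls and 94.4, 81.0, 98.9, 99.0 and 77.4 CPM in mutants (-0.16, SE 0.11). Both groups overlapped in each of these genes. For Cox6b1 and Cox6b2 the signs were opposite, and each 95% interval held 0 (-0.08 to 0.36 and -0.40 to 0.08).

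Cox8a is the common form of a further small subunit. Controls had 528, 496, 509 and 538 CPM and mutants had 436, 461, 426, 472 and 539 CPM. Mutant 12 was level with the highest control, and the other 4 mutants were below every control. The log2 fold change was -0.15 (SE 0.09, edgeR adjusted p = 0.604). In mutant 12 the first library held 691 CPM and the second 441 CPM. The muscle form Cox8b, the testis form Cox8c, and the testis form Cox7b2 were at 0 in every library, and Cox7c had 0.14 (SE 0.15).

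In the ATP synthase, Atp5a1 (ENSMUSG00000025428, chromosome 18, 77773729 to 77782869, overlapping Haus1 on the opposite strand), the alpha subunit of the catalytic head, had the smallest p of all members. Controls had 430, 400, 406 and 455 CPM and mutants had 499, 585, 476, 508 and 488 CPM. The lowest mutant, mouse 8, was above the highest control, mouse 4. The means were 423 ± 25.1 and 511 ± 43.2 CPM (SD, n = 4 and 5), with a log2 fold change of 0.27 (SE 0.09, unadjusted p = 0.0106, edgeR adjusted p = 0.363). Leaving out 1 mouse gave between 0.22 and 0.31, the first technical libraries alone 0.34 and the second alone 0.21. No source used here states whether counting used strand, so reads of Haus1 may be among those counted.

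Atp5b, the beta subunit that carries the catalytic site, had 784, 739, 665 and 785 CPM in controls and 724, 873, 806, 846 and 774 CPM in mutants. The groups overlapped, with a log2 fold change of 0.12 (SE 0.09). Atp5c1, the gamma subunit and central shaft, had 376, 383, 358 and 400 CPM in controls and 410, 519, 396, 411 and 413 CPM in mutants. Mutant 7 stood apart, and without it the log2 fold change of 0.18 (SE 0.10, edgeR adjusted p = 0.568) was 0.11. Atp5d and Atp5e, the delta and epsilon subunits at the foot of the shaft, had 0.06 (SE 0.10) and -0.03 (SE 0.09).

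The peripheral stalk holds the head still. Its b subunit, Atp5f1, had 281, 284, 242 and 282 CPM in controls and 214, 269, 235, 223 and 264 CPM in mutants. Apart from control 3 the controls were above every mutant, and the log2 fold change was -0.18 (SE 0.10, edgeR adjusted p = 0.575). The other stalk genes lay at 0.15 for Atp5h (SE 0.13), 0.06 for Atp5j (SE 0.16) and -0.003 for Atp5o (SE 0.13). Stalk and head genes therefore had values on both sides of 0, and the difference between them was not tested.

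The 3 subunit c genes, whose coding ends are printed above, all lay above 0 and within the spread of the mice. Atp5g1 had 654 ± 133 and 743 ± 82.2 CPM (SD, n = 4 controls and 5 mutants), with 0.18 (SE 0.14). Atp5g2 had 729 ± 92.0 and 767 ± 53.8 CPM, with 0.07 (SE 0.10), and Atp5g3 had 759 ± 53.0 and 771 ± 39.4 CPM, with 0.02 (SE 0.09). Estimated counts of Atp5g1 were not whole in 18 of 18 libraries, and those of Atp5g2 and Atp5g3 were whole in all (within 0.01). Fractional estimated counts arise where reads are shared among transcripts, so Atp5g1 may be the less certain of the 3. How many reads were shared was not measured. Counts of Atp5l, Atp5j, Cycs, Cox7c and Cox5b were not whole in 18 of 18 libraries either. Those of Atp5o, Atp5b and Atp5h were not whole in 15, 13 and 12. The 10 pseudogene rows of member families held 0.00397% as many counts as the members.

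Of the other membrane subunits, Atp5j2 (subunit f) had 293, 390, 318 and 327 CPM in controls and 440, 404, 500, 362 and 282 CPM in mutants, with a log2 fold change of 0.26 (SE 0.15). Mutants 6, 7 and 8 were above every control, and mutant 12 was the lowest mouse. Atp5l (subunit g) and Atp5k (subunit e), which take part in pairing 2 synthases, had 0.19 (SE 0.15) and 0.17 (SE 0.14). Atp5mpl, a small protein of the membrane part, was at 11.3 ± 2.87 and 8.68 ± 5.42 CPM (-0.39, SE 0.35), and Atp5s, a coupling factor of the synthase, at 18.4 ± 1.63 and 18.9 ± 2.06 CPM (0.04, SE 0.11).

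In the fit without a covariate the size of most differences was bounded. For 33 of 41 tested members the whole 95% interval of the fold change lay within 1.5-fold in either direction. These intervals were not adjusted for the number of members. They were not taken under either library set or the total-count covariate, settings that moved the medians as given below. The exceptions were Uqcrb in complex III; Cox6c, Cox7b, Cox7a2, Cox7a1 and Cox6a2 in complex IV; and Atp5j2 and Atp5mpl in the ATP synthase. A p that misses the threshold does not show that the groups were alike.

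Summed over members, complex III held 2209 ± 153 and 2355 ± 89.1 CPM (SD, n = 4 controls and 5 mutants). Complex IV held 6154 ± 567 and 6430 ± 272 CPM, and the ATP synthase 6681 ± 354 and 7179 ± 488 CPM. In the ATP synthase 4 of 5 mutants were above every control, and mutant 12, at 6338 CPM, was above control 1 alone. In complex IV control 3, at 6973 CPM, was the highest mouse. The spread followed mice across members: control 3 was the highest control in 24 of 41 tested members and control 1 the lowest in 20, and mutant 12 was the lowest mutant in 22. The same counts were not taken over all tested genes, so this order may not be particular to the members.

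**Figure D3:**
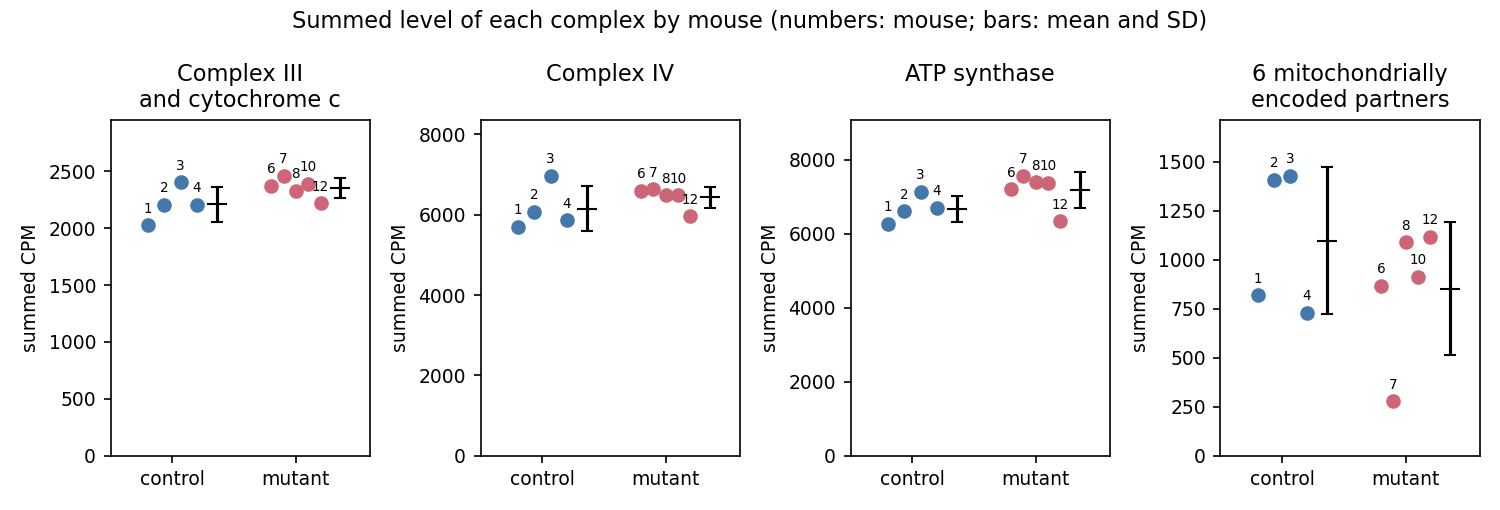
Summed level of each complex and of 6 mitochondrially encoded partner genes in each mouse, in CPM, with the mouse number above each point and the mean and SD beside each group (4 control and 5 mutant mice). Mutant 12 is the lowest mutant in the 3 nuclear sums, at 5958 CPM in complex IV, and mutant 7 is the lowest mouse in the partner sum, at 277 CPM.

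The technical libraries of a mouse differed from each other. In 27 of 41 members the SD between the 2 libraries of a mouse, on the log2(CPM + 1) scale, was larger than the SD between mice of a group, each mouse being the sum of its libraries. Mutant 12 had 35 of 41 members lower in its second library, with median differences of -0.40 in complex III, -0.60 in complex IV and -0.17 in the ATP synthase. The shares over all tested genes were not taken for these counts. In mutant 7 Cox7b was at 228 CPM in the first and 84.1 CPM in the second library, and Cox7a2 at 447 and 185 CPM. All 4 controls had a median second-less-first difference above 0 in complex IV, between 0.09 and 0.27. Mutants 6 and 10 lay within that range, at 0.20 and 0.15, and mutants 7 and 8 were at -0.18 and -0.16.

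**Figure D4:**
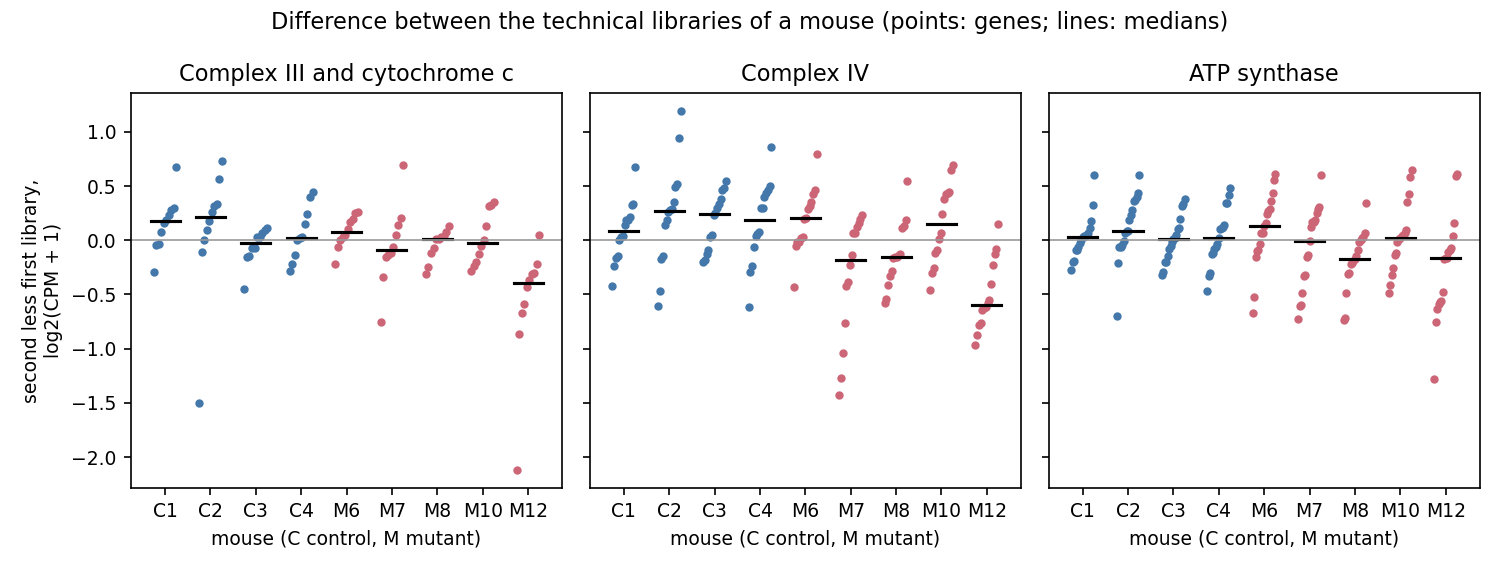
Second less first technical library of each mouse, as a difference of log2(CPM + 1), for the tested genes of each complex (points), with the median as a line; C marks control and M mutant mice. In complex IV the medians of the 4 controls lie between 0.09 and 0.27. Those of mutants 6 and 10 lie at 0.20 and 0.15, and those of mutants 7, 8 and 12 at -0.18, -0.16 and -0.60.

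The median shift lay above 0 in the first libraries and not in the second. With the first libraries alone the medians were 0.19, 0.24 and 0.17 for complex III, complex IV and the ATP synthase, and with the second alone -0.008, -0.067 and -0.006. By the mean CPM of the libraries, 14 of 41 members were higher in mutants in both sets, 6 were lower in both, 17 were higher in the first set and lower in the second, and 4 were the reverse. The total count of the mouse also moved with the group, and with its log2 as a covariate the medians were -0.023, -0.039 and -0.038, with 4 of 10, 5 of 14 and 7 of 17 members above 0. Single mice moved the medians as well: complex IV had 0.04 without control 1 or mutant 7, 0.05 without control 4 or mutant 8 and 0.17 without control 3, complex III 0.05 without control 1 or mutant 7 and 0.13 without mutant 12 or control 3, and the ATP synthase 0.14 without control 3 and 0.13 without mutant 12. Without the first library of mutant 7 alone, complex III and complex IV had 0.04 and 0.02, and without the second library of mutant 12 complex III and the ATP synthase had 0.13 and 0.12. The median over all genes stayed between -0.001 and 0.005 with either set of libraries or the covariate. Atp5a1, Uqcrc1, Uqcrfs1 and Cox6c stayed above 0 in each of these 3 settings (0.22, 0.19, 0.22 and 0.20 with the covariate). Among the named members Atp5c1, Atp5g1 and Cyc1 also stayed above 0 in them, and Cox7a1, Cox8a and Cox6b2 stayed below 0.

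**Figure D5:**
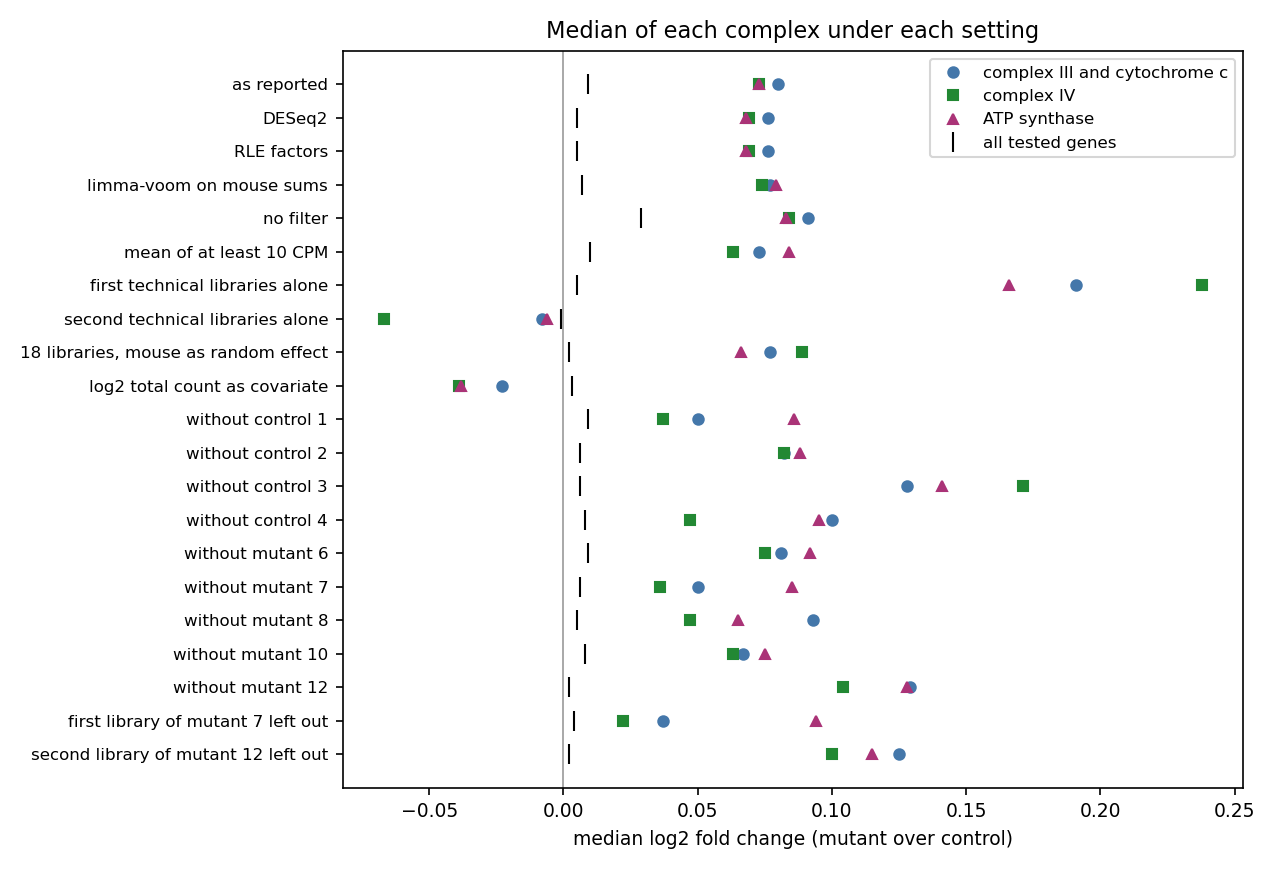
Median log2 fold change (mutant over control) of the tested genes of each complex under each setting, with the median of all tested genes as a bar. The 3 medians lie above 0 except with the second technical libraries alone (-0.008, -0.067 and -0.006) or when total count is a covariate (-0.023, -0.039 and -0.038).

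The mitochondrially encoded partners of these complexes lay on the other side of 0. All 6 were below 0, with a median of -0.40 and no call: mt-Cytb of complex III at -0.44 (SE 0.37), mt-Co1, mt-Co2 and mt-Co3 of complex IV at -0.22 (SE 0.33), -0.32 (SE 0.38) and -0.44 (SE 0.44), and mt-Atp6 and mt-Atp8 of the ATP synthase at -0.36 (SE 0.42) and -0.46 (SE 0.39). Summed, they held 818, 1410, 1430 and 730 CPM in controls and 868, 277, 1090, 912 and 1118 CPM in mutants. Mutant 7, the lowest, was the highest mouse for the nuclear sums of complex III and the ATP synthase. The other mutants lay within the control range. Single mice moved these values: without mutant 7 mt-Co1, mt-Co2 and mt-Atp6 were at -0.042, -0.072 and -0.126, and without control 3 mt-Co1, mt-Co3 and mt-Cytb at 0.059, -0.117 and -0.188. With the first libraries alone mt-Cytb, mt-Atp6, mt-Co1 and mt-Co2 were above 0 (0.05, 0.02, 0.28 and 0.09).

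Genes listed here with the assembly of these complexes showed no call either. Of 6 tested complex III assembly genes 2 were above 0 (median -0.04). At an unadjusted p under 0.05, 2 were lower, against 4.89% of all tested genes. Ttc19, which clears fragments of the Rieske protein, was at 2.53, 2.20, 3.27 and 2.73 CPM in controls and 1.27, 1.81, 1.17, 1.58 and 2.19 CPM in mutants, with every mutant below every control (-0.75, SE 0.24, edgeR adjusted p = 0.345). Uqcc3, an assembly factor of cytochrome b, had 141 ± 10.9 and 123 ± 8.69 CPM (-0.20, SE 0.09, adjusted p = 0.503). For complex IV 16 of 28 genes of the assembly list were above 0, with Coa7 at 0.21 (SE 0.09) and Cox14 at -0.17 (SE 0.08). For the ATP synthase 4 of 7 genes of the assembly and inhibitor list were above 0. The inhibitor gene Atpif1 was at 0.19 (SE 0.14), and Usmg5, counted in this list, at 0.46 (SE 0.33). Usmg5 was at 0.21 without mutant 7, 0.052 with the second libraries alone and -0.35 under the covariate fit.

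Neighbouring parts of the chain also had most members above 0. Complex I had 27 of 36 tested subunits above 0 (median 0.06, and counts only are given for this list). At an unadjusted p under 0.05, 3 of them were higher, against 4.96% of all tested genes. Complex II with its assembly factors had 7 of 8 above 0 (median 0.13), with Sdha at 0.17 (SE 0.09) and Sdhaf2 at 0.15 (SE 0.10). Carriers that exchange ATP, ADP and phosphate were above 0 in 6 of 6 (median 0.19). Of these, 3 were higher at an unadjusted p under 0.05, against 4.96% of all tested genes. Vdac1, the pore of the outer membrane, had 91.1, 90.8, 92.9 and 94.9 CPM in controls and 108, 137, 101, 117 and 107 CPM in mutants, with no overlap (0.30, SE 0.10, edgeR adjusted p = 0.345). Slc25a3, the phosphate carrier that supplies the ATP synthase, had 0.32 (SE 0.14, adjusted p = 0.466). Of 8 tested regulators of respiratory genes 5 were above 0, with Yy1 at 0.14 (SE 0.10) and Esrra at -0.19 (SE 0.16). With the first and second libraries alone Sdha was at 0.29 and 0.05, and Sdhaf2 at 0.08 and 0.195. Vdac1 was at 0.36 and 0.23, and Slc25a3 at 0.50 and 0.18. Mutant 7 had the highest summed level of the carriers, at 3626 CPM against 2598 to 3050 CPM in the other mutants. The medians of these lists were not taken under either library set or the covariate. Whether the 3 complexes differed from these lists was not tested.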

How the data were processed

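Polyadenylated RNA was turned into MARS-seq libraries, sequenced on an Illumina NextSeq 500 per the labels. The authors deposited estimated counts for 54347 gene rows in 18 libraries. Salmon 1.3, bcl2fastq, FastQC and GRCm38 are named, per the submitters' processing notes, without roles. No source used here gives the strand setting, the annotation release or whether molecular identifiers were used. Fractional values made up 11.3% of the table. The first 18 characters of each ID were matched to GENCODE mouse release M21 (54094 of 54347 rows).

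Counts were summed over the 2 libraries of each mouse, then rounded. Nothing in the labels pairs mice across groups. Genes were tested over the whole table with edgeR 4.0.16 in R 4.3.3 (filterByExpr, minimum count 10, TMM factors, quasi-likelihood F-test, 4 control and 5 mutant mice, no covariate), with Benjamini-Hochberg adjustment over 12973 tested genes. P-values are 2-sided. SE is the log2 coefficient over the root of F, and CPM used TMM factors. A level of 3 counts, taken as the floor, is 0.12 to 0.24 CPM, and covers counting error only. The fit was tested on simulated data. Lists are described by counts and medians. Alternatives were DESeq2 1.42.0, RLE factors, limma-voom (limma 3.58.1), other filters, either technical library alone, a random effect of the mouse over all libraries, total count as a covariate, and leaving out each mouse. Leaving out the first library of mutant 7 or the second of mutant 12 was added after seeing the data.

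Named genes were, in each complex, the 4 with the smallest p and the 2 with the highest mean CPM; the electron carriers, core proteins and catalytic subunits; all paralog sets; and of the other lists the 2 with the smallest p, or all mitochondrially encoded partners. Complex I, taken by symbol, was outside this rule and is given by counts. Other members are given for completeness. The members and lists were chosen with earlier results of these data known. Promoters and starts are from RefSeq (GRCm38.p6).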

Additional observations from a re-analysis of the deposited data

Results flagged for a closer look

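Dixon's ratio was applied to the named tested genes and the sum of each complex, in 96 groups of 4 or 5 mice. At its 95% critical value 8 groups held a mouse that stood apart from the rest, where chance flags about 1 in 20. Other members, such as Cox5a, Uqcrh and Atp5h, were not screened. Mutant 12 stood high in Uqcrb, at 10.02 CPM against 2.51 to 4.29 CPM in the other mutants, in the muscle form Cox6a2, at 2.609 CPM against 0.22 to 0.68 CPM, and in the regulator gene Esrra, at 56.39 CPM against 33.0 to 39.2 CPM. The same mouse stood low in the summed level of complex IV, at 5958 CPM against 6479 to 6628 CPM. Mutant 7 stood high in the gamma subunit gene Atp5c1, at 518.5 CPM against 396 to 413 CPM, and low in the mitochondrially encoded mt-Cytb, at 58.52 CPM against 217 to 258 CPM. Control 3 stood low in the stalk gene Atp5f1, at 241.7 CPM against 281 to 284 CPM, and high in Cox6b1, at 428.4 CPM against 353 to 365 CPM.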

How the results depend on the processing

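No member was called under any alternative. The count of called genes over the whole table, 9 as reported, was 90 with DESeq2, 62 with 18 libraries and the mouse as a random effect, 21 without a filter, 3 with second technical libraries alone, and 0 with first libraries alone, a filter at 10 CPM, the total count as a covariate or the first library of mutant 7 left out. Leaving out 1 mouse gave 0 to 7 calls, and medians of 0.05 to 0.129 for complex III, 0.036 to 0.171 for complex IV and 0.065 to 0.141 for the ATP synthase. The medians were 0.19, 0.24 and 0.17 with first libraries alone, -0.008 and -0.067 (complex III and IV) with second libraries alone, and -0.023, -0.039 and -0.038 with the covariate. The cause was not tested.

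Of 885 pairs of a named gene and a setting, 842 kept their direction, and 43 changed sign, 8 of them on leaving out a mouse. With first libraries alone those that changed sign were Atp5g2 (-0.001), Cox6a1 (0.13), mt-Cytb (0.049), mt-Atp6 (0.016), mt-Co2 (0.086) and mt-Co1 (0.28). With second libraries alone they were Atp5f1 (0.048), Atp5b (-0.006), Atp5g3 (-0.028), Uqcrq (-0.088), Uqcrc2 (-0.029), Uqcr11 (-0.06), Cox7a2 (-0.045), Cox6b1 (-0.018), Cox4i1 (-0.079) and Cox7a2l (0.012). With the covariate they were Atp5j2 (-0.065), Atp5g2 (-0.038), Atp5g3 (-0.023), Uqcrq (-0.01), Uqcrb (0.37), Cycs (-0.14), Uqcrc2 (-0.036), Uqcr11 (-0.055), Cox7b (-0.20), Cox7a2 (-0.11), Cox4i1 (-0.009), Usmg5 (-0.35), mt-Atp8 (0.007), mt-Atp6 (0.11), mt-Co2 (0.067) and Esrra (0.16). Cox7a2l, at -0.001 as reported, was 0.01 with no filter, 0.02 without the first library of mutant 7 and 0.004 without the second of mutant 12. Leaving out a mouse moved Cox7a2l between -0.032 and 0.037, Atp5g2 between -0.003 and 0.14, Atp5g3 between -0.01 and 0.059, Uqcr11 between -0.017 and 0.16 and mt-Co1 between -0.43 and 0.059. No paired analysis was possible because mouse numbers are not shared between groups. Depth limits Cox6a2, Cox7a1, Uqcrb, Ttc19 and mt-Atp8, the least counted of the named tested genes.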
